A study of Homo sapiens with 6 samples.

Results

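The genes described here encode the proteins of the cytosolic ribosome. They were taken by symbol, as RPS or RPL followed by a number and at most an A or an X, with RPLP0, RPLP1, RPLP2 and RPSA added, and with a mean of at least 10 CPM (counts scaled to library size) over all 6 libraries. Of 77 such symbols among 60728 genes in the deposited table, 75 passed, 30 of the small and 45 of the large ribosomal subunit, and all 75 were among the 15548 genes tested. The libraries are bulk RNA-seq of the human line JJN3 (multiple myeloma, genotype WT), with 2 libraries in each of 3 groups. Cells were exposed to the solvent DMSO, to WNK463 over 2 h or to WNK463 over 6 h, WNK463 being a compound that inhibits kinases of the WNK family. For WNK463 the sample protocol names 5 µM and the design text 1 µM, a conflict that could not be settled. The time label of the DMSO libraries is "control", so treatment and time in culture cannot be told apart. Nothing in the labels tells whether the 2 replicates of a group came from different cultures, and p-values here refer to the spread among the sequenced libraries.

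A eukaryotic ribosome is built from ribosomal RNAs and from a set of small, mostly basic proteins, most of which are needed in equal numbers. Their mRNAs are among the most abundant of a growing cell, and most begin with a cytosine followed by a run of pyrimidines, the 5′ terminal oligopyrimidine (TOP) motif, through which mTORC1 and LARP1 control their translation and stability. Multiple myeloma is a cancer of plasma cells, the immune cells that make and secrete antibodies in bulk.

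The start sites of 7 of these genes are shown because the TOP motif is the sequence feature by which this mRNA class is defined, and because these genes carry several of the changes described further on. Each window holds 40 bases before and 20 bases after the first transcribed base in RefSeq on GRCh38.p14, 5′ to 3′ on the transcribed strand, so that its last part is the beginning of the first exon. Capitals mark an uninterrupted run of pyrimidines that starts with C exactly at the first base and is at least 5 bases long. Where a gene had several RefSeq starts, the start with the longest such run is shown. RPL3 and RPL4 have no such run at the first base and are in lower case throughout. In both, a run of this kind begins within 5 bases of the first base.
RPL24: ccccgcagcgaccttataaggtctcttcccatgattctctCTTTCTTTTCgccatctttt
RPS23: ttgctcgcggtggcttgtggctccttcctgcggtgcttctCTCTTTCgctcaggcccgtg
RPL13: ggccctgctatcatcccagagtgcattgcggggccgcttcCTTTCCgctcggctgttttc
RPS19: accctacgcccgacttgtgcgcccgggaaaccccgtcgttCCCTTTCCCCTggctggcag
RPLP0: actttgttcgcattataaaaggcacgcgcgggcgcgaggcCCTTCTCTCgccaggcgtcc
RPL3: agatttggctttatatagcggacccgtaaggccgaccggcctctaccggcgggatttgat
RPL4: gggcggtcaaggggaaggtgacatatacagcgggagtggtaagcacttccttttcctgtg
On GRCh38.p14 the windows lie at chr3:101686699-101686758 (RPL24, minus strand), chr5:82278335-82278394 (RPS23, minus strand), chr16:89560642-89560701 (RPL13, plus strand), chr19:41860215-41860274 (RPS19, plus strand), chr12:120201092-120201151 (RPLP0, minus strand), chr22:39319604-39319663 (RPL3, minus strand) and chr15:66504836-66504895 (RPL4, minus strand).

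RefSeq promoter windows were matched by symbol for 60 of the 75 genes. Of these 10 had several starts, and a gene was counted for a motif if any of its starts had it. A run of at least 5 pyrimidines led by C began at the first base in 44 of the 60 genes (73.3%), against 5.14% of 27305 genes with a window. It began within 5 bases of the first base in 51 (85.0%, against 25.2%). Counted over single starts, a run began at the first base in 44 of 75 starts (58.7%, against 4.07% of 35116 starts). The motif CCGGAAG, a core of ETS-family sites searched on both strands of the 300 bases from 250 before to 50 after the start, was present in 21 of 60 genes (35.0%, against 12.2%). AAGATGGC, the core letters of a YY1 site, was present in 6 (10.0%, against 3.52%). On the transcribed strand CTTTCC was present in 24 (40.0%, against 16.6%) and CTTTTC in 17 (28.3%, against 13.8%), and both can overlap the TOP run. On both strands TATAAA was present in 5 (8.33%, against 14.0%) and CACGTG, an E-box, in 4 (6.67%, against 8.77%).

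Counts assigned to genes ranged from 18013790 to 24002291 per library, and the ribosomal protein genes alone held between 1006387 and 1378753 of them, so that counting error on their sum is small. Plasma cell and myeloma markers fitted the label of the line, with 9 of 10 over 1 CPM in every library (IGHA1 at 0.155 to 1.12 CPM was the exception). T cell, monocyte and erythroid marker lists each summed to at most 1.75 CPM in any library, and CD3D and HBB had 0 counts in all 6. The epithelial marker EPCAM stood at 90.0 to 115 CPM, KRT18 at 4.98 to 9.9 CPM and KRT8 at no more than 0.769 CPM. Of these 3 epithelial markers 2 were over 1 CPM in every library. Their sum was 97.1 to 97.4 CPM under DMSO, 117 to 123 CPM at 2 h and 109 to 115 CPM at 6 h. The part of these markers in the results was not tested. The share of counts from mitochondrially encoded genes was between 4.43% and 5.24%. Replicates differed by more than sampling noise, most in the DMSO pair (chi-square per degree of freedom 8.85 for DMSO, 4.19 at 2 h and 3.59 at 6 h).

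As a share of all counts, ribosomal protein genes held 5.84% and 5.44% under DMSO, 5.84% and 5.74% after 2 h of WNK463, and 5.31% and 5.44% after 6 h. The 6 h libraries were below both 2 h libraries, whereas the DMSO libraries spanned nearly the whole range. Summed CPM on the scaled library sizes, for which a trimmed mean of ratios corrects each total, was 58223 and 54701 under DMSO, 59745 and 58865 at 2 h, and 51858 and 53342 at 6 h. On this scale the 6 h libraries were the 2 lowest and the 2 h libraries the 2 highest of the 6. In bulk RNA, fewer cells and less RNA per cell cannot be told apart, and a share says nothing of the total amount of mRNA in a cell. Small subunit genes held 1.94% and 2.01% of counts at 6 h, against 2.15% and 2.12% at 2 h, and large subunit genes 3.37% and 3.44% at 6 h, against 3.69% and 3.63% at 2 h.

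**Figure D1:**
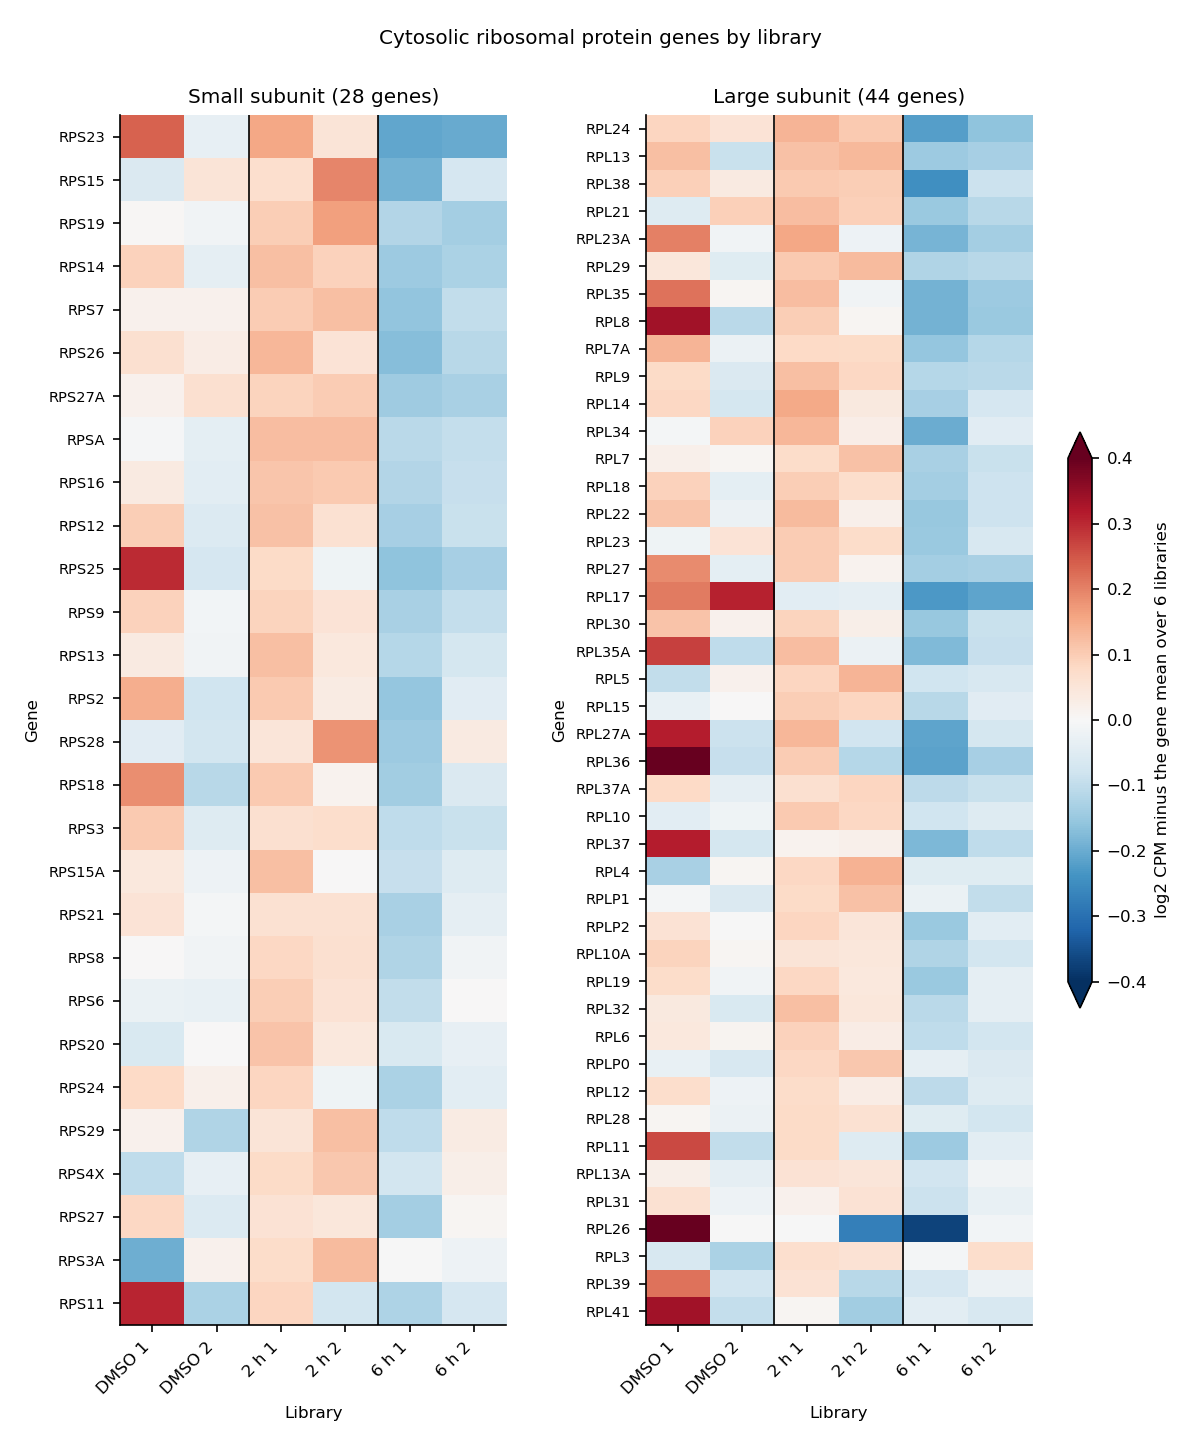
log2 CPM of 72 of the 75 genes in each library, minus the gene's mean over the 6 libraries, with the small subunit at left, the large subunit at right and the genes sorted by their change between 6 h and 2 h. The 6 h columns are mostly blue and the 2 h columns mostly red, while DMSO replicate 1 is redder than DMSO replicate 2 in 61 of the 75 genes.

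Levels of different genes were compared per length, as counts per kilobase of the total exonic length in the deposited table scaled to the same total in each library (TPM). The highest were RPS12 at 3312 TPM (mean of the 6 libraries, range 3117 to 3561), RPL8 at 2814 TPM (2537 to 3547), RPLP0 at 2523 TPM (2398 to 2643), RPL13A at 2396 TPM (2324 to 2446) and RPS2 at 2325 TPM (2154 to 2578). RPS12 belongs to the beak of the small subunit, RPL8 lies beside the peptidyl transferase centre, RPLP0 is the base of the stalk that recruits elongation factors, RPL13A also acts in the GAIT complex that silences inflammatory mRNAs, and RPS2 lines the mRNA entry channel. The ranges of RPS12 and RPL8 overlap each other, and those of RPL8, RPLP0, RPL13A and RPS2 overlap in part. These ranges run across libraries, and the order of the genes within each library was not tested. Among the lowest were RPL38 at 81.2 TPM (70.7 to 86.9), RPS29 at 29 TPM (26.5 to 30.6), RPL17 at 26.6 TPM (23.3 to 32.5) and RPL26 at 22.8 TPM (17.8 to 35.3), of which RPL38 stood clear of the next and the other 3 overlapped each other. With coding length in place of exonic length, an alternative chosen after seeing the data, RPS12 ranked 29th at 1622 TPM. By that measure RPL8 ranked 11th, RPLP0 4th, RPL13A 6th and RPS2 17th. RPL38 then stood at 449 TPM and RPS29 at 515 TPM, while RPL26 and RPL17 stayed near the bottom with 39.4 and 36.1 TPM.

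Low counts of single genes are uncertain here, because reads that map to more than 1 place were not counted and every one of the 75 genes has a named pseudogene. The 1587 annotated ribosomal protein pseudogenes together held between 0.0487% and 0.055% of counts. Exonic bases were shared with another gene in 44 of the 75, and a read over shared bases was not counted for either; the shared portion was the largest in RPL10 (55.5% of its exonic length). Near the threshold of 10 CPM and inside it lay RPL26 (15.5 CPM over the 6 libraries) and RPL17 (18.0 CPM), well under RPS29 (78.3 CPM). Just outside it lay RPS10 and RPL36A, both at 4.74 CPM, of whose exonic length 40.3% and 22.4% was shared with other genes. RPS10 is a small subunit protein and RPL36A a large subunit one.

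The 6 h and 2 h libraries were compared first, since neither group mean uses the DMSO pair, whose libraries enter this test through the shared estimate of the spread. At 6 h, 49 of the 75 genes were lower than at 2 h and 0 were higher (adjusted p under 0.05, edgeR's quasi-likelihood test with Benjamini-Hochberg adjustment over all genes tested). The count of higher genes was also 0 at an unadjusted p under 0.05, in DESeq2 and in limma voom. Of all genes tested 13.1% were called lower and 11.1% higher. The median log2 change of the 75 was -0.17, against 0.01 over all genes tested. Both 6 h libraries were below both 2 h libraries in 68 of the 75 genes, as in 30.2% of all genes tested, and both were above in 0 (31.8% of all genes tested). The fitted change was below 0 in 74 of the 75, against 48.4% of all genes tested. Without the 6 h replicate 1, which was the lower of its pair, 12 genes were called lower, without the 6 h replicate 2 33, without the 2 h replicate 1 20 and without the 2 h replicate 2 30. Without DMSO replicate 1 the count was 67, without DMSO replicate 2 it was 68, and with only the 2 groups compared it was also 68. When libraries were scaled by total counts alone 17 were called, with a median of -0.10.

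The calls were spread over both subunits. At 6 h 18 of 30 small subunit genes and 31 of 45 large subunit genes were called lower than at 2 h, with a median log2 change of -0.17 in each. Genes of families shared by all domains of life gave 22 lower of 33, and the others 27 lower of 42, again with medians of -0.17. Of the genes with a TOP run at the first base 27 of 44 were called lower (median -0.17), and of those without it 12 of 16 (median -0.16). Those without it include RPL3 and RPL4, where a run begins within 5 bases of the first base. Across the 75 genes the change had a Pearson correlation of -0.16 with coding length and 0.08 with level, as a description over genes that share libraries and depth. The changes had an interquartile range of -0.22 to -0.14.

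Among the called genes with the largest change between 6 h and 2 h were RPL24, RPS23, RPL38, RPL13, RPS15 and RPS19. RPL24, a large subunit protein that forms a bridge to the small subunit, had 371 and 363 CPM under DMSO, 384 and 376 CPM at 2 h, and 300 and 313 CPM at 6 h. Both 6 h libraries were below the other 4, and DMSO and 2 h libraries differed little. The log2 change at 6 h relative to 2 h was -0.31 ± 0.059 (SE, adjusted p = 6.81e-05, edgeR), a fold of 0.807.

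RPS23 sits in the decoding centre and bears on the accuracy of translation. It had 219 and 182 CPM under DMSO, 207 and 193 CPM at 2 h, and 161 and 162 CPM at 6 h. The 6 h pair was the lowest and the DMSO pair spanned the 2 h pair. Its log2 change at 6 h was -0.31 ± 0.073 relative to 2 h (SE, adjusted p = 0.00103, edgeR).

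RPL13, a large subunit protein, had 2619 and 2268 CPM under DMSO, 2615 and 2635 CPM at 2 h, and 2181 and 2199 CPM at 6 h. Both pairs under WNK463 were tight, with SDs of 14.1 CPM at 2 h and 12.4 CPM at 6 h, and the lower DMSO library came close to the 6 h pair. The log2 change at 6 h relative to 2 h was -0.26 ± 0.048 (SE, adjusted p = 4.25e-05, edgeR). RPL38, whose loss in mice alters the axial skeleton, had 91.1 and 87.4 CPM under DMSO, 91.7 and 91.4 CPM at 2 h, and 72.0 and 80.4 CPM at 6 h. Its 6 h libraries were the lowest of the 6, and it was called at -0.26 ± 0.084 (SE, adjusted p = 0.0158, edgeR). This call was lost without either 2 h library, without the 6 h replicate 1 and with library size alone, with an adjusted p of up to 0.318 (edgeR).

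Among small subunit genes, RPS19, the gene most often mutated in Diamond-Blackfan anemia, had 585 and 578 CPM under DMSO, 624 and 653 CPM at 2 h, and 538 and 531 CPM at 6 h. The 3 groups did not overlap, with DMSO between the others, and the log2 change at 6 h relative to 2 h was -0.26 ± 0.054 (SE, adjusted p = 0.000276, edgeR). RPS15, a head protein near the decoding site, had 548 and 591 CPM under DMSO, 597 and 653 CPM at 2 h, and 500 and 544 CPM at 6 h, and was called at -0.26 ± 0.058 (SE, adjusted p = 0.000555, edgeR), with no overlap between the 6 h and 2 h libraries; the call was lost without the 6 h replicate 1 and without the 2 h replicate 2. Of the 18 Diamond-Blackfan anemia genes in the set, 9 were called lower at 6 h than at 2 h. The share called lower was 65.3% over the 75 genes and 13.1% over all genes tested.

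The 3 stalk genes were all called lower at 6 h than at 2 h. RPLP0, to which the other 2 attach, had 2710 and 2645 CPM under DMSO, 2929 and 2979 CPM at 2 h, and 2697 and 2656 CPM at 6 h. Its 2 h libraries were above the other 4, and the 6 h and DMSO pairs overlapped. RPLP0 was lower at 6 h than at 2 h by a log2 change of -0.14 ± 0.043 (SE, adjusted p = 0.0104, edgeR). RPLP1, at 1253 and 1193 CPM at 6 h and 1348 and 1385 CPM at 2 h, was called at -0.16 (adjusted p = 0.0118, edgeR). RPLP2, at 434 and 468 CPM at 6 h and 511 and 498 CPM at 2 h, was also called at -0.16 (adjusted p = 0.0309, edgeR). The calls of RPLP0 and RPLP2 were lost without any one of the 4 treated libraries and that of RPLP1 without any of them but the 6 h replicate 1, and all 3 were lost with library size alone.

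RPL5 and RPL11 assemble with 5S ribosomal RNA into the particle that can bind and inhibit MDM2. RPL5 had 1413 and 1534 CPM under DMSO, 1608 and 1666 CPM at 2 h, and 1433 and 1450 CPM at 6 h. The 2 h pair was the highest and the 6 h pair lay within the DMSO pair; RPL5 was called lower at 6 h than at 2 h (-0.18 ± 0.048, SE, adjusted p = 0.00345, edgeR), a call lost without the 6 h replicate 1, without the 2 h replicate 2 and with library size alone. RPL11 had 677 and 527 CPM under DMSO, 595 and 544 CPM at 2 h, and 510 and 548 CPM at 6 h, with overlap between all groups, and its -0.11 between 6 h and 2 h was not called (adjusted p = 0.275, edgeR), though it was without either DMSO library and with only the 2 groups compared. The change of RPL5 was not tested against that of RPL11.

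The smallest differences between 6 h and 2 h were those of RPL41 (log2 change 0.01), RPL39 (-0.02), RPL3 (-0.03) and RPL26 (-0.04), which are named here because their values were seen to be the nearest to 0; the sign of each changed in some refits. RPL41 is a peptide of 25 residues and RPL39 one of 51 residues that lines the exit tunnel. RPL41 had 260 and 193 CPM under DMSO, 207 and 187 CPM at 2 h, and 200 and 197 CPM at 6 h, so that DMSO replicate 1 stood above all other libraries.

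**Figure D2:**
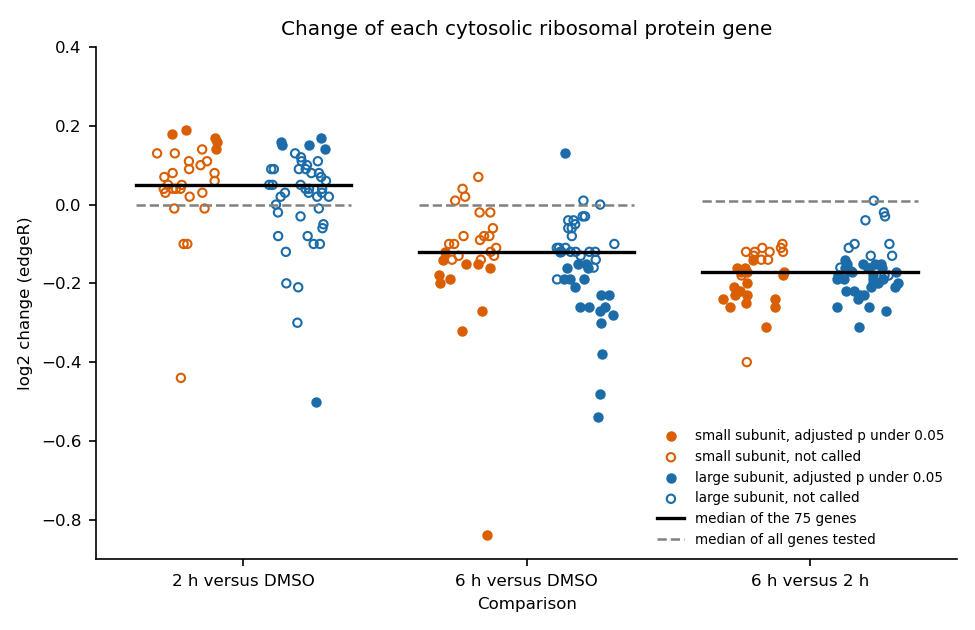
log2 change of each of the 75 genes in the 3 comparisons, with filled points called at an adjusted p under 0.05, small subunit genes in orange and large subunit genes in blue. The median of the 75 genes (black) was 0.05 for 2 h versus DMSO, -0.12 for 6 h versus DMSO and -0.17 for 6 h versus 2 h, and no gene was called above 0 in the last.

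Relative to DMSO, 31 of the 75 genes were called lower at 6 h and 1 higher, where 18.6% of all genes tested were called lower and 18.0% higher. The median log2 change was -0.12 (all genes tested -0.00). This comparison uses the same 6 h libraries as the one above and the same DMSO libraries as the one at 2 h. Both 6 h libraries were below both DMSO libraries in 51 genes (33.1% of all genes tested) and above both in 1 (32.7%). The count moved with single libraries: 9 genes were called lower without the 6 h replicate 1, 19 without the 6 h replicate 2, 21 without the DMSO replicate 1 and 51 without the DMSO replicate 2. It was 19 in DESeq2's Wald test. By subunit it was 11 of 30 small and 20 of 45 large subunit genes.

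RPL17 and RPL26, with few counts, had changes at 6 h relative to DMSO that were among the largest of the set. RPL17, which lines the exit tunnel, had 20.7 and 22.2 CPM under DMSO, 17.4 and 17.5 CPM at 2 h, and 15.3 and 15.5 CPM at 6 h. Its 3 pairs did not overlap, and at 6 h it was called at -0.48 ± 0.14 relative to DMSO (SE, adjusted p = 0.00642, edgeR), a call lost without the 6 h replicate 1 (adjusted p = 0.0562, edgeR). Of its exonic length 35.3% is shared with other genes, among them the read-through gene RPL17-C18orf32. RPL26, at the mouth of the tunnel, had 23.9 and 15.1 CPM under DMSO, 15.1 and 12.5 CPM at 2 h, and 11.7 and 15.0 CPM at 6 h. The 2 DMSO libraries were further apart than the treated ones, and its call at 6 h (-0.54 ± 0.17, SE, adjusted p = 0.012, edgeR) was lost without DMSO replicate 1, without the 6 h replicate 1 and in DESeq2.

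RPL36, RPL8 and RPL37 shared that dependence. RPL36, of the large subunit, had 265 and 182 CPM under DMSO, 208 and 179 CPM at 2 h, and 167 and 177 CPM at 6 h. DMSO replicate 1 alone stood high, and the call at 6 h (-0.38 ± 0.091, SE, adjusted p = 0.000796, edgeR) was lost without it. RPL8 had 2097 and 1542 CPM under DMSO, 1775 and 1670 CPM at 2 h, and 1457 and 1497 CPM at 6 h. RPL37, of the large subunit, had 574 and 440 CPM under DMSO, 467 and 469 CPM at 2 h, and 408 and 431 CPM at 6 h. In both genes DMSO replicate 1 was the highest library and DMSO replicate 2 lay nearer to the 6 h pair, and neither was called without DMSO replicate 1 (with it, RPL8 -0.30 and RPL37 -0.27). DESeq2 called none of RPL36, RPL8 and RPL37.

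Other genes were lower at 6 h whichever DMSO library was used. RPL35, at the rim of the tunnel exit, had 286 and 295 CPM at 6 h, against 379 and 328 CPM under DMSO, and its log2 change was -0.28 ± 0.065 (SE, adjusted p = 0.000521, edgeR). RPS23 was called at -0.32 ± 0.073 relative to DMSO (SE, adjusted p = 0.000488, edgeR), with both 6 h libraries below both DMSO libraries. In 18 refits with other scalings, filters and tests and with each library left out in turn, RPL24, RPL35 and RPS23 were among the genes called lower at 6 h than under DMSO in every one. RPL23A, a docking site for factors that meet the nascent chain, was called in all of them but DESeq2 on every gene with a count, where its adjusted p was 0.0649. Between 6 h and 2 h the genes called lower in every refit included RPL13, RPL21, RPL24, RPL29, RPS14, RPS19, RPS23, RPS27A and RPSA.

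RPL3 alone was called higher at 6 h than under DMSO. RPL3, which reaches to the peptidyl transferase centre, had 1561 and 1494 CPM under DMSO, 1706 and 1698 CPM at 2 h, and 1623 and 1713 CPM at 6 h. Both treated pairs were above both DMSO libraries and overlapped each other. The log2 change was 0.13 ± 0.047 at 6 h (SE, adjusted p = 0.0308, edgeR) and 0.16 ± 0.047 at 2 h (SE, adjusted p = 0.0161, edgeR), in each case relative to DMSO. The 6 h call was lost without any one of the 4 treated libraries and the 2 h call without either 2 h library.

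**Figure D3:**
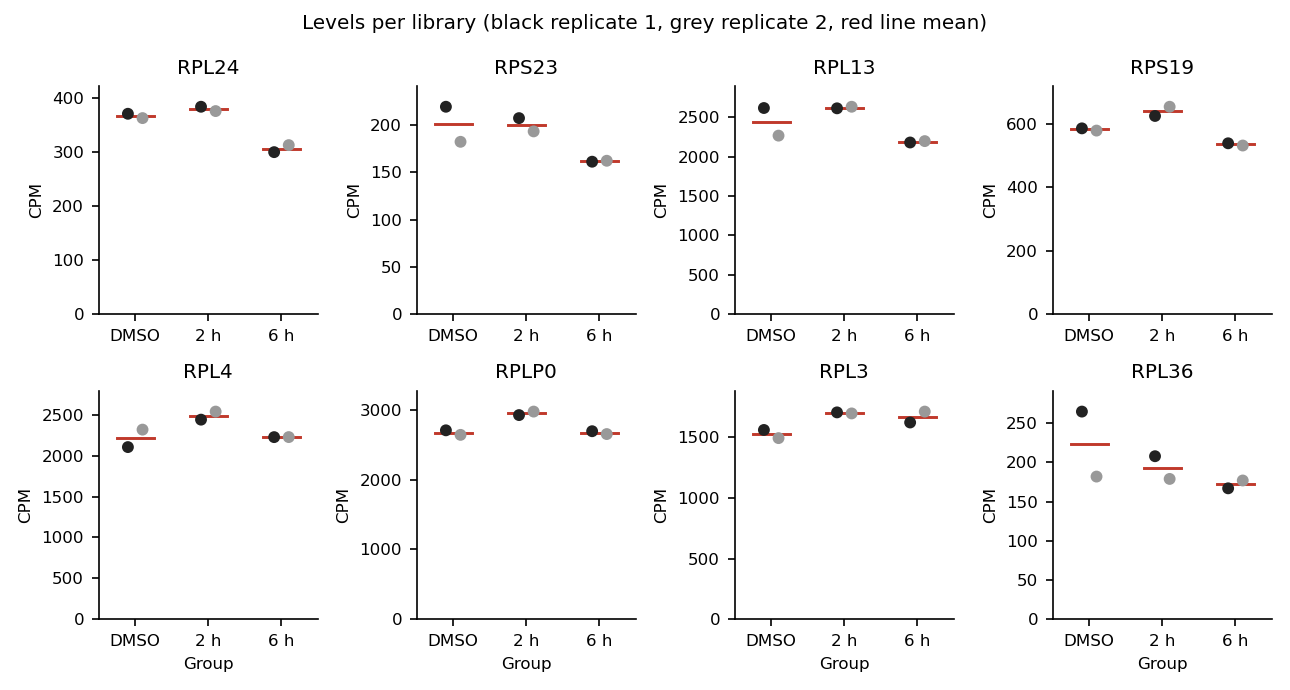
CPM in each library of RPL24, RPS23, RPL13, RPS19, RPL4, RPLP0, RPL3 and RPL36, with replicate 1 in black, replicate 2 in grey, a red line at the mean of each pair and axes from 0. RPL24 had 300 and 313 CPM at 6 h against 371 and 363 CPM under DMSO, RPL3 stayed above DMSO at both times, and in RPL36 DMSO replicate 1 (265 CPM) lay apart.

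At 2 h relative to DMSO 10 of the 75 genes were called higher and 1 lower, where 8.68% of all genes tested were called higher and 8.32% lower, so the share of these genes called higher (13.3%) was not far above the background. The median log2 change was 0.05 (all genes tested -0.00). Both 2 h libraries were above both DMSO libraries in 35 genes (27.1% of all genes tested) and below both in 2 (27.3%). The count called higher was 0 without the 2 h replicate 2 and 3 without the 2 h replicate 1, 5 without either 6 h library, 30 without DMSO replicate 1 and 17 without DMSO replicate 2, and no gene was called higher in every refit. Among the genes called were RPS3A, RPS28, RPL4, RPS4X, RPL3, RPL5, RPSA and RPLP0.

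RPS3A, of the small subunit, had the largest of these changes. It had 1002 and 1040 CPM at 2 h, against 831 and 964 CPM under DMSO, a log2 change of 0.19 ± 0.055 (SE, adjusted p = 0.0136, edgeR). Both 2 h libraries were above both DMSO libraries, and DMSO replicate 2 lay much nearer to them than DMSO replicate 1 did. RPL4, which narrows the exit tunnel, had 2442 and 2541 CPM at 2 h, against 2106 and 2320 CPM under DMSO, and was called at 0.17 ± 0.046 (SE, adjusted p = 0.00683, edgeR). RPS28, near the mRNA exit, had 371 and 407 CPM at 2 h, against 348 and 341 CPM under DMSO, and was called at 0.18 (adjusted p = 0.0448, edgeR). RPS4X, the X-linked form of a small subunit protein, had 790 and 808 CPM at 2 h, against 699 and 732 CPM under DMSO, and was called at 0.16 (adjusted p = 0.0325, edgeR). In all 4 genes the groups did not overlap. All 4 calls were lost without the 2 h replicate 2, that of RPS3A also without DMSO replicate 1, those of RPS28 and RPS4X without either 6 h library, and that of RPS4X without the 2 h replicate 1. DESeq2 did not call RPS28. RPL26 was the gene called lower, with a log2 change of -0.50 (adjusted p = 0.0396, edgeR), a call lost in DESeq2, without DMSO replicate 1 and without the 2 h replicate 2, and its lower DMSO library and its higher 2 h library were equal at 15.1 CPM.

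The DMSO libraries differed in these genes more than the other pairs did. DMSO replicate 1 minus replicate 2 had a median of 0.08 on the log2 scale, was above 0 in 61 of the 75 genes and over 0.2 in 18, and ran from -0.21 to 0.66. The same difference had a median of 0.03 at 2 h, with 53 genes above 0, and of -0.05 at 6 h, with 9 above 0. Across the 75 genes the deviations of same-numbered libraries from their group means had a Pearson correlation of 0.71 between 2 h and DMSO, against -0.25 between 6 h and DMSO and -0.26 between 6 h and 2 h. Over all genes tested the values were -0.01, -0.04 and -0.02. Of all genes tested the DMSO difference had a median of 0.0 and was over 0.2 in 25.4%, so the share of these genes over 0.2 was no larger than that of genes at large. It was under -0.2 in 1 of the 75 genes, against 21.5% of all genes tested, so the larger differences in this set lay mostly on 1 side. Across the 75 genes the DMSO difference had a Pearson correlation of -0.32 with coding length, and other genes with a coding length under 600 bases (1527 of them) had a median DMSO difference of 0.03; the part of transcript length in the results was not tested.

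Set against each DMSO library apart, the 6 h libraries kept their side. The mean of the 6 h pair minus DMSO replicate 1 had a median log2 difference of -0.16, with both 6 h libraries below it in 66 of the 75 genes (42.7% of all genes tested). Minus DMSO replicate 2 the median was -0.06, with both below in 55 (42.0%). The 2 h libraries were less settled: minus DMSO replicate 1 the median was 0.01, with both 2 h libraries above in 36 and below in 26, and minus DMSO replicate 2 it was 0.10, with both above in 65 and below in 2 (39.1% and 39.8% of all genes tested had both above DMSO replicate 1 and DMSO replicate 2).

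**Figure D4:**
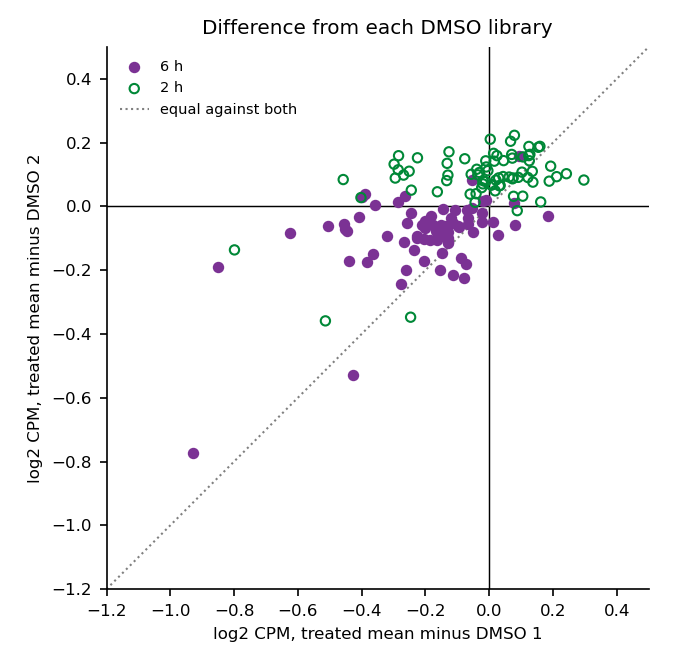
log2 CPM of the mean of the treated pair minus DMSO replicate 2 (vertical) against the same minus DMSO replicate 1 (horizontal), one point per gene for 6 h (filled purple) and for 2 h (open green). The 6 h points gather below and left of 0, with medians of -0.16 and -0.06 on the 2 axes, while the 2 h points straddle 0 on the horizontal axis (median 0.01).

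Relative to DMSO, longer and more abundant members had higher changes. The change at 2 h had a Pearson correlation across the 75 genes of 0.31 with coding length and 0.70 with level, and 0.45 and 0.40 over the 72 left when the 3 genes of lowest level were set aside. At 6 h the values were 0.21 and 0.68 over 75 genes and 0.29 and 0.37 over 72. Both comparisons share the DMSO libraries, and genes share depth and library, so these values only describe the set. Other genes with a coding length under 600 bases had median log2 changes of -0.02 at 2 h and -0.08 at 6 h relative to DMSO, and of -0.04 between 6 h and 2 h.

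Genes that encode ribosomal proteins under other names were taken as a list of paralogs and fusion genes, of which 8 of 10 were tested. Of these 4 were called lower at 6 h than at 2 h (13.1% of all genes tested). FAU, a fusion of a ubiquitin-like protein with the small subunit protein eS30, had 237 and 270 CPM at 6 h, against 290 and 315 CPM at 2 h (log2 change -0.25, adjusted p = 0.00271, edgeR), and was also higher at 2 h than under DMSO (0.18, adjusted p = 0.0441, edgeR), a call lost in 10 of 19 alternatives. RPL22L1, a paralog of RPL22, had 20.6 and 20.8 CPM at 6 h, against 32.1 and 25.1 CPM at 2 h (-0.47, adjusted p = 0.00706, edgeR), and RPL26L1, a paralog of RPL26, had 17.8 and 19.4 CPM at 6 h, against 25.8 and 25.9 CPM at 2 h (-0.47, adjusted p = 0.00575, edgeR). RPL7L1 was called at -0.28 (adjusted p = 0.000508, edgeR). Without the 6 h replicate 1 none of these 4 genes was called. RPL3L and RPL10L were not tested, at means of 0.309 and 0.00925 CPM.

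A list of other genes whose mRNAs carry a TOP motif, most but not all of the translation machinery, had 20 genes tested. At 6 h 13 of them were called lower and 2 higher than at 2 h, with a median log2 change of -0.17. The shares over all genes tested were 13.1% lower and 11.1% higher. NPM1, a nucleolar chaperone, had 1528 and 1559 CPM at 6 h, against 2244 and 2202 CPM at 2 h (log2 change -0.53, adjusted p = 2.04e-12, edgeR). PABPC1, the poly(A)-binding protein, had 2658 and 2637 CPM at 6 h, against 3328 and 3365 CPM at 2 h (-0.34, adjusted p = 1.76e-08, edgeR). In both genes the groups stood far apart. EIF2S3, a subunit of the initiation factor that brings the initiator tRNA, was called at -0.46 (adjusted p = 1.02e-07, edgeR) and EIF4B, a cofactor of the helicase EIF4A, at -0.26 (adjusted p = 0.000189, edgeR). The genes called higher were VIM, an intermediate filament protein (0.26, adjusted p = 0.000248, edgeR), and EIF4A2, an RNA helicase (0.22, adjusted p = 0.00392, edgeR), the call of EIF4A2 being lost without the 6 h replicate 1 and without the 2 h replicate 2.

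The elongation factors of the TOP list differed among themselves relative to DMSO. EEF1A1, which delivers aminoacyl-tRNA, had 13612 and 14102 CPM under DMSO, 15693 and 15689 CPM at 2 h, and 15162 and 15192 CPM at 6 h, and was called higher than DMSO at 2 h (0.18, adjusted p = 6e-05, edgeR) and at 6 h (0.13, adjusted p = 0.00125, edgeR). EEF2, which drives translocation, was called higher than DMSO at 2 h (0.27, adjusted p = 1.01e-05, edgeR) and at 6 h (0.12, adjusted p = 0.025, edgeR), and lower at 6 h than at 2 h (-0.15, adjusted p = 0.0115, edgeR). Its 2 calls at 6 h were lost without any one of the 4 treated libraries. EEF1D, an exchange factor of EEF1A1, was lower than DMSO at both times (-0.45 at 2 h, adjusted p = 6.18e-06, and -0.78 at 6 h, adjusted p = 3.71e-12, edgeR). Relative to DMSO the list gave 7 higher and 2 lower at 2 h, and 5 higher and 8 lower at 6 h. Over all genes tested 8.68% were called higher and 8.32% lower at 2 h, and 18.0% higher and 18.6% lower at 6 h. EEF1G was listed at 0 counts in all 6 libraries.

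Larger changes were found in the dedicated chaperones that escort single ribosomal proteins to the nucleus or the assembling subunit. At 6 h 8 of 9 were called lower than DMSO (18.6% of all genes tested), with a median log2 change of -0.65. BCCIP, counterpart of the yeast chaperone of the RPL23 protein, had 41.2 and 38.6 CPM at 6 h, against 72.7 and 80.9 CPM under DMSO (-0.95 ± 0.096, SE, adjusted p = 4.14e-11, edgeR). GRWD1, counterpart of the yeast chaperone of the RPL3 protein, had 88.7 and 87.1 CPM at 6 h, against 161 and 140 CPM under DMSO (-0.77 ± 0.078, SE, adjusted p = 3.27e-11, edgeR), and RPL3 itself was the gene called higher at 6 h. RPS19BP1, which binds the RPS19 protein, was called at -0.81 (adjusted p = 8.58e-08, edgeR) and PDCD2, a chaperone of the RPS2 protein, at -0.45 (adjusted p = 2.67e-05, edgeR). LTV1, which in yeast binds the RPS3 and RPS20 proteins on the assembling small subunit, was called at -0.65 (adjusted p = 1.42e-05, edgeR). AAMP was not called, at 0.21 (adjusted p = 0.0641, edgeR), but was called higher in 5 of 19 alternatives, limma voom among them. At 2 h relative to DMSO 3 of the 9 were called lower, among them TSR2, the chaperone of the RPS26 protein (-0.66, adjusted p = 0.00254, edgeR), and between 6 h and 2 h 6 of the 9. Of all genes tested 8.32% and 13.1% were called lower in these comparisons.

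Of 11 regulators of TOP mRNAs 5 were called lower at 6 h than under DMSO (18.6% of all genes tested), with a median of -0.20. LARP1, which binds the TOP motif and the cap, had 449 and 442 CPM at 6 h, against 642 and 613 CPM under DMSO (-0.49 ± 0.055, SE, adjusted p = 4.63e-10, edgeR). EIF4EBP1, an inhibitor of translation that mTORC1 phosphorylates, was called at -0.62 (adjusted p = 2.2e-07, edgeR). CNBP was called at -0.35 (adjusted p = 5.86e-06, edgeR) and LARP4 at -0.35 (adjusted p = 8.08e-05, edgeR). The kinase genes were not called: MTOR stood at 0.08 (adjusted p = 0.368, edgeR) and RPS6KB1, whose product phosphorylates the RPS6 protein, at -0.17 (adjusted p = 0.104, edgeR; 0.00819 without DMSO replicate 1). At 2 h relative to DMSO 0 were called in either direction, by edgeR, by DESeq2 and by limma voom, and 0 also at an unadjusted p under 0.05.

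Of 4 factors that bind idle ribosomes 3 were called lower at 6 h than under DMSO (18.6% of all genes tested). SERBP1, which occupies the mRNA channel of idle ribosomes, had 1022 and 1018 CPM at 6 h, against 1438 and 1374 CPM under DMSO (-0.46 ± 0.049, SE, adjusted p = 9.21e-11, edgeR). IFRD2 was called at -0.69 (adjusted p = 2.92e-10, edgeR) and CCDC124 at -0.47 (adjusted p = 0.00175, edgeR; lost without DMSO replicate 1 and without the 6 h replicate 1), while HABP4, a paralog of SERBP1, was not called (0.14, adjusted p = 0.567, edgeR).

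Among 8 factors linked to the promoters of these genes, MYC, a transcription factor that drives ribosome production, had 537 and 534 CPM at 2 h and 465 and 462 CPM at 6 h, against 884 and 824 CPM under DMSO. It was called lower than DMSO at 2 h (-0.67 ± 0.054, SE, adjusted p = 1.88e-13, edgeR), a time at which the ribosomal protein genes had a median of 0.05, and at 6 h (-0.88 ± 0.055, SE, adjusted p = 9.57e-18, edgeR). TBP, the TATA-binding protein, had 14.1 and 11.5 CPM at 2 h, against 19.2 and 21.4 CPM under DMSO (-0.67, adjusted p = 0.00104, edgeR; 0.0548 without the 2 h replicate 2), and 18.9 and 23.1 CPM at 6 h. NRF1 (-0.36, adjusted p = 0.0242, edgeR) and E4F1 (-0.36, adjusted p = 0.00369, edgeR) were called lower than DMSO at 6 h, and SP1 higher (0.21, adjusted p = 0.025, edgeR). All 3 calls were lost without DMSO replicate 1, those of NRF1 and SP1 also without the 6 h replicate 1, and that of E4F1 without the 6 h replicate 2. YY1 and GABPA were not called by edgeR relative to DMSO at either time. At 2 h YY1 stood at 0.17 (adjusted p = 0.0556, edgeR), and DESeq2 and limma voom each called 1 of the 8 factors higher. YY1 was called lower at 6 h than at 2 h (-0.18, adjusted p = 0.031, edgeR).

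Unassembled RPL5 and RPL11 can act on the cell cycle through MDM2. CDKN1A, a cell cycle inhibitor, had 166 and 167 CPM at 2 h and 170 and 167 CPM at 6 h, against 78.2 and 71.5 CPM under DMSO. It was called higher at 2 h (1.16, adjusted p = 1.11e-16, edgeR) and at 6 h (1.17, adjusted p = 2.67e-17, edgeR). MDM2, a ubiquitin ligase, was called higher than DMSO at 6 h (0.27, adjusted p = 0.00275, edgeR; 0.147 without the 6 h replicate 1) and not at 2 h (0.15, adjusted p = 0.158, edgeR).

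**Figure D5:**
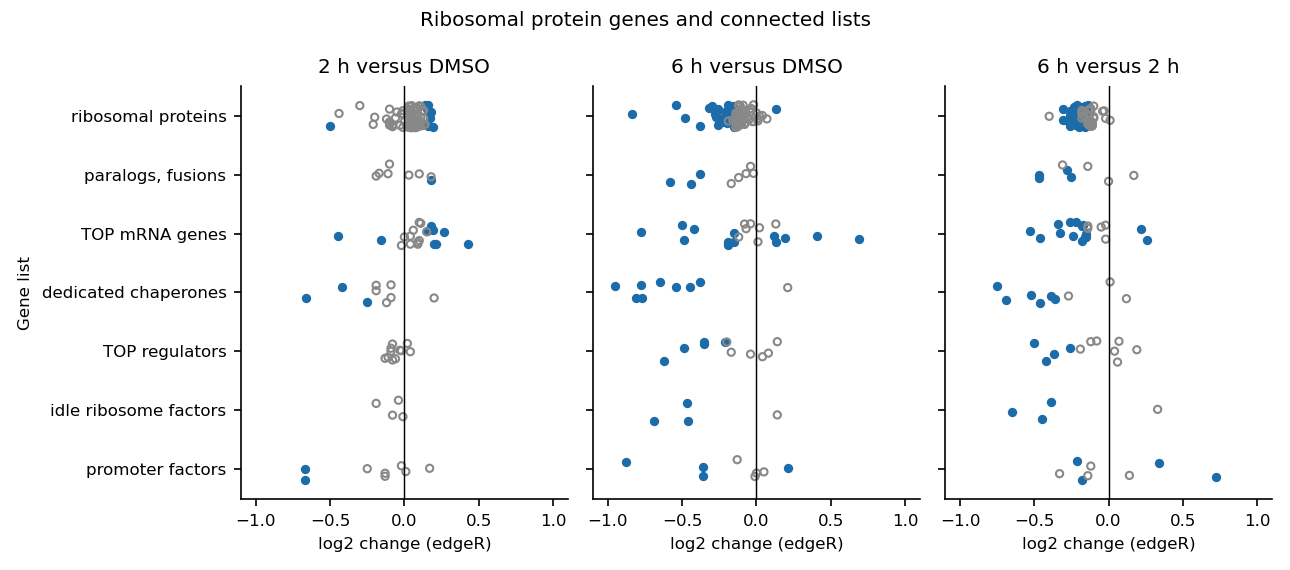
log2 change of the 75 ribosomal protein genes and of the genes in 6 connected lists, one point per gene, with filled points called at an adjusted p under 0.05. At 6 h versus DMSO the dedicated chaperones (median -0.65) and idle ribosome factors (median -0.47) lie further below 0 than the ribosomal protein genes (median -0.12).

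The 5 tested genes outside the set whose levels were most like the mean centred log2 CPM of the 75 genes over the 6 libraries were AARS1 (Pearson correlation 0.995), HSD17B10 (0.994), SMARCA4 (0.994), SRSF9 (0.993) and ZBTB2 (0.991). AARS1, which charges tRNA with alanine, ranged from 287 to 332 CPM and changed by -0.17 between 6 h and 2 h, a call lost in 9 of 19 alternatives. SRSF9, a splicing factor, ranged from 70.0 to 101 CPM and changed by -0.42. With 6 points and 15548 genes, correlations of this size describe likeness only.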

How the data were processed

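The deposited table holds whole-number fragment counts per gene of 6 libraries. Per the file headers, the authors counted read pairs with featureCounts 2.0.0 on GENCODE 34 at a mapping quality of at least 20, with both ends mapped, without chimeric pairs and without regard to strand; per the submitters' processing notes, trimming used Trimmomatic and alignment STAR against hg38, with versions not given in the sources used here. Reads in more than 1 place or gene were not counted. Gene length in the deposited table gives exonic bases. The broken record of ANK2 was rejoined.

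Counts were tested in R 4.3.3 with edgeR 4.0.16 (quasi-likelihood, TMM factors 0.977 to 1.025, filterByExpr), fitted once over all 6 libraries on group means; Benjamini-Hochberg adjustment ran over all 15548 genes. The spread rested on 42.8 prior and 3 residual degrees of freedom. The SE was derived from the F statistic. The procedure was run on simulated counts in which scattered genes changed in both directions. A small shift shared by a set of genes was not simulated. Alternatives were other scalings and filters, DESeq2 1.42.0 (with the same filter and, chosen after seeing the data, on all genes with a count), limma 3.58.1 voom, robust dispersions, the 2 groups compared only, a replicate block, a stricter threshold of 0.01 and each library left out. Tables and figures used Python 3.11.15. Coding lengths are from GENCODE 29 and promoter sequences from RefSeq on GRCh38.p14.

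The members and lists were chosen with earlier results of these data known. Genes described singly are up to 8 called members with the largest change per direction and comparison, members called against the median's direction, the 5 highest and 5 lowest per length, stalk and 5S particle genes, those beside the threshold, called list genes with the 4 smallest adjusted p, and the 5 outside genes most like the set; others were named after their values were seen. Some genes that meet these rules are not reported here. With 2 against 2 libraries an exact two-sided permutation p cannot go below 0.333, so no single value was tested that way. A count of 3 corresponds to 0.125 to 0.167 CPM, which covers counting error only.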

Additional observations from a re-analysis of the deposited data

Results flagged for a closer look

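A direct test of the 2 times under WNK463 (edgeR, adjusted p under 0.05) called 49 of the ribosomal protein genes, each lower at 6 h. The same DMSO libraries serve both times, so in these differences treatment and time in culture cannot be told apart. Among the largest of these differences on the log2 scale were -0.31 in RPS23, -0.31 in RPL24, -0.26 in RPL38, -0.26 in RPL13, -0.26 in RPS15 and -0.26 in RPS19. The difference in RPL38 was not called without either 2 h library, without the 6 h replicate 1 or with library size alone, nor that in RPS15 without the 6 h replicate 1 or without the 2 h replicate 2. With 2 libraries per group no single library could be tested as standing apart from its group.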

How the results depend on the processing

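Among the results recomputed under the alternatives, the 4 uncalled changes nearest to 0 between 6 h and 2 h reversed. With library size alone they were 0.02 in RPL26, 0.04 in RPL3 and 0.05 in RPL39, which was 0.00 at a mean of at least 10 CPM; with each library left out in turn they ran from -0.24 to 0.13 in RPL26, from -0.07 to 0.01 in RPL3, from -0.10 to 0.06 in RPL39 and from -0.06 to 0.09 in RPL41. The other recomputed results kept their direction, but the counts of called genes depended on scaling, test and single libraries, and the causes were not tested. The count called higher at 2 h than under DMSO (10) was 2 with library size alone, 3 with only the 2 groups compared and 1 at an adjusted p under 0.01. The count called lower at 6 h than under DMSO (31) was 17 with library size alone, 19 in DESeq2, 20 with only the 2 groups compared and 15 at an adjusted p under 0.01. The count called lower at 6 h than at 2 h (49) was 17 with library size alone and 28 at an adjusted p under 0.01, with a median of -0.10 under library size alone; it was 46 in DESeq2 and 56 in limma voom. DESeq2 on all genes with at least 1 count, chosen after seeing the data, gave 12 higher and 0 lower at 2 h and 19 lower at 6 h relative to DMSO, and 48 lower at 6 h than at 2 h. When each library was left out in turn, the 3 counts ran from 0 to 30, from 9 to 51 and from 12 to 68, and the medians from 0.02 to 0.10, from -0.16 to -0.06 and from -0.21 to -0.15. A fit that leaves a lone library in a group assumes that it varies like the others.

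Same-numbered libraries were not taken as pairs, since their deviations did not correlate over all genes tested (-0.01, -0.04 and -0.02), although over the 75 genes the correlation was 0.71 between 2 h and DMSO (-0.25 between 6 h and DMSO, -0.26 between 6 h and 2 h). A replicate block gave counts of 10 higher at 2 h and 32 lower at 6 h relative to DMSO, and 50 lower at 6 h than at 2 h. Depth was not limiting except for genes of low level such as RPL26 and RPL17.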
